A study of Homo sapiens with 15 samples.

Results

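FPM_IC50 and SRM_IC50 are cultures of differentiating human embryonic stem cells that received different airborne particles, each at the concentration its authors named the IC50, and they are set against each other here. The cells were H9, an established and genetically unmodified embryonic stem cell line, kept for 5 days in serum medium without directed signals and from day 5 with vitamin D3, β-glycerophosphate and ascorbic acid, the supplements that favour bone formation. Particles were present from day 0 and RNA was collected on day 7. FPM_IC50 had fine particulate matter at 1.4 µg/mL, SRM_IC50 had a NIST standard reference material at 5.9 µg/mL, and the vehicle control UNT had an equal volume of DMSO (0.1%). The labels do not name the solvent of the particles, so whether UNT and the particle groups had the same vehicle is not given. A second pair of groups, FPM_IC25 at 0.00062 µg/mL and SRM_IC25 at 0.003 µg/mL, serves as the same contrast at a lower level. Each of the 5 groups has 3 libraries of polyadenylated RNA, 15 in all. The labels do not say where the particles were collected, nor that replicates were separate cultures, so every p-value measures only the spread between these libraries, which may be technical. Concentrations were matched by inhibition and not by mass, and the SRM mass was 4.21 times the FPM mass, so kind of particle and mass cannot be told apart.

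The genes described, called members below, had at least 1 CPM (counts in every 1000000 of a library) in 3 of the 6 compared libraries and a mean of at least 1 CPM in SRM_IC50 or UNT. This rule kept 15321 of 60675 listed genes, and all of them were among the 19012 genes tested. It is not symmetric: another 1225 genes reached 1 CPM in 3 of the 6 libraries but not in either mean, of which 1133 were called higher at FPM_IC50. Exons of 1084 of those 1225 overlap exons of a gene on the opposite strand. At the edge of the rule, SBK3 was kept with a mean of 1.001 CPM at SRM_IC50, and NCMAP was left out with a mean of 0.9975 CPM in UNT. In 153 members every FPM_IC50 library and no SRM_IC50 library had 1 CPM, in 107 the reverse held, and these genes had to differ. Among the largest differences below, HES3, LCK, SNCB, WIF1, HTR3A, LGALS12, UTF1 and SHISA3 were of the latter kind. Their mean in UNT was also below 1 CPM, so they were kept only through SRM_IC50, where they were high. The 12 higher genes among the largest differences, such as CGA and GCM1, were all of the former kind. So were CYP19A1, CDX2, DCT and VDR, while CHGA, DES, IL1A and MFNG were of the latter kind. These genes reached 1 CPM in 3 libraries only through the group where they were high. For all genes named here as of either kind, direction and adjusted p are therefore no support for a difference.

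Embryonic stem cells hold their undifferentiated state through a few transcription factors, among them POU5F1, SOX2 and NANOG, which repress genes of the first lineages. Once released, cells can form amnion and trophoblast, the embryo's outer tissues, whose mature cells fuse by means of captured retroviral envelope proteins and secrete gonadotropin, or neural ectoderm, neural crest and mesoderm, the last of which gives rise to bone. WNT, BMP, FGF and retinoid signals steer these choices. Particles carry hydrocarbons that can activate the aryl hydrocarbon receptor, a ligand-gated transcription factor that induces CYP1A1.

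At the higher level many genes differed between the particles. With FPM_IC50, 24 of 26 amnion and trophoblast members, 24 of 25 simple epithelium members and 9 of 15 lateral plate and cardiac mesoderm members were called higher than with SRM_IC50. In the other direction, 14 of 19 pluripotency, 16 of 22 neuron, 14 of 23 neural crest and 25 of 34 cell cycle members were called lower. The lists were written with earlier results of these data known, so their counts, here and below, are description and no support for a pattern. Of the members, 2610 (17% of 15321) were called higher and 2955 (19.3%) lower by edgeR's quasi-likelihood test, with a Benjamini-Hochberg adjusted p under 0.05 over all genes tested. This test gives each adjusted p below, except where limma is named, and library values are CPM scaled by TMM, edgeR's correction for composition. Together these are 36.3% of members. Over all 19012 genes the shares were 23.2% higher and 16.2% lower, together 39.3%. Each list count below is to be read beside these shares, and several lie near them. The difference exceeded 2-fold in 922 higher and 551 lower members, and 8-fold in 89 and 10. The FPM_IC50 and SRM_IC50 libraries did not overlap in 6692 members (43.7%), against 46.6% of all genes tested. The median log2 difference, FPM_IC50 minus SRM_IC50, was -0.04 over members and 0.02 over all genes tested.

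Counts against the vehicle control depended on the genes counted, since the member rule asks for a mean of 1 CPM in SRM_IC50 or UNT but not in FPM_IC50. Against UNT, 493 members (3.22%) were higher and 519 (3.39%) lower at FPM_IC50, while 1434 (9.36%) were higher and 1715 (11.2%) lower at SRM_IC50. Over all genes tested the shares were 10.8% and 2.77% at FPM_IC50, and 7.96% and 9.59% at SRM_IC50. There the share called higher than UNT was larger at FPM_IC50, the reverse of the order among members. Both of these contrasts use libraries of the comparison between the particles, so the values are given side by side only. The leading principal component of member expression held 48.5% of the variance over 15 libraries, with SRM_IC50 libraries at 52.1 to 61.0. The FPM libraries of both levels lay at -29.5 to -23.3, apart from SRM_IC25 at -11.2 to 0.176 and UNT at 0.179 to 5.38. On the next, with 17.3%, SRM_IC50 replicate 3 lay at -10.5, apart from replicates 1 and 2 at 24.9 and 21.0, and FPM_IC50 replicate 3 lay at -0.929, apart from 17.5 and 18.8. Over members with no opposite gene within 5 kb, SRM_IC50 lay at 30.7 to 32.4 on the leading component. There the FPM libraries lay at -13.1 to -8.55, SRM_IC25 at -10.0 to -4.33 and UNT at -5.36 to -2.70. Here the FPM libraries overlapped those of SRM_IC25 but not those of UNT, and the cause was not tested. Components over different gene sets have different scales, so distances are not compared between them. Without SRM_IC50 replicate 3 the calls were 2310 higher and 2706 lower, and without FPM_IC50 replicate 3 they were 2335 and 2585.

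Libraries held 9.77 to 19.5 M (units of 1000000) counts at FPM_IC50, 12.04 to 29.2 M at SRM_IC50 and 17.3 to 20.1 M in UNT, so that 3 counts in a library stand for 0.103 to 0.307 CPM in the 6 compared. Genes that lie opposite to others took more of the counts in FPM libraries. Genes annotated as antisense held 1.03% to 1.499% of counts at FPM_IC50, 0.288% to 0.319% at SRM_IC50 and 0.274% to 0.287% in UNT, with 0.942% to 1.27% at FPM_IC25 and 0.298% to 0.303% at SRM_IC25. MT-ND6, the sole protein gene on the other mitochondrial strand, held 1.12% to 1.30% of mitochondrial protein-coding counts at FPM_IC50 against 0.248% to 0.330% at SRM_IC50. Its level was 375, 349 and 426 CPM at FPM_IC50, 101, 105 and 124 CPM at SRM_IC50 and 99.7, 99.9 and 131 CPM in UNT, a log2 difference of 1.81 (edgeR adjusted p = 1.26e-08). The strand setting of the authors' counting is not given in the sources used here, so a gene whose exons overlap an opposite gene's exons is uncertain, and the part of strand in the differences was not tested. Of the genes with values below, such overlap holds for AHR, ALDOC, CCND1, CCND3, CLDN6, COL9A1, CYP19A1, CYP1B1, DES, ETV4, FOXD3, FOXH1, GATA6, GREM1, H19, HMGCS1, HOXB2, HSPD1, HSPE1, ICAM1, IDH1, IDI1, IGF2, IL1R1, KRT23, KRT7, LIN28B, MEIS1, MTHFD2, NEFM, NODAL, NQO1, OVOL1, POU5F1, PRDX1, RARB, TAGLN, TDGF1, THY1, TNFAIP3, TRPV6, TYMS, VDR, WNT11, ZEB2 and ZIC1. Among the 6061 members with such overlap 1249 (20.6%) were higher and 951 (15.7%) lower. In the 3582 members with no opposite gene within 5 kb, 567 (15.8%) were higher and 854 (23.8%) lower. A fit on such genes alone called 673 higher and 673 lower. It is a fit in which fewer genes set the scaling, the spread and the adjustment, and the cause of the change in balance was not tested. The plot by opposite-strand class shows the shares, and several lists below are also counted over their members with no opposite gene within 5 kb.

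**Figure D1:**
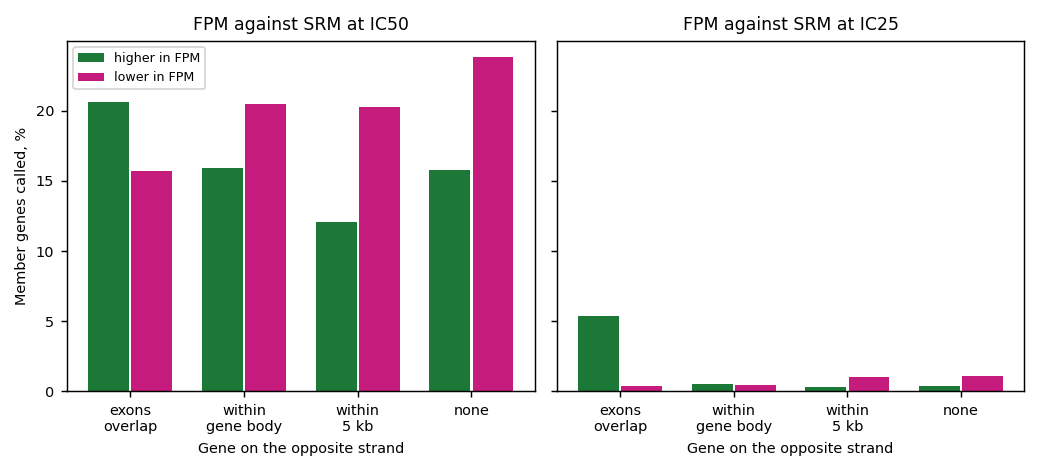
Share of member genes called higher (green) or lower (magenta) in FPM than in SRM, by what lies on the opposite strand, at IC50 (left) and IC25 (right). At IC25 the 5.35% of exon-overlapping members called higher stand above every other bar, which are at most 1.12%, and 60 members with no class are not drawn.

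The promoters of 3 members are shown as examples, picked after their values were seen: CGA, a hormone gene of trophoblast and much higher at FPM_IC50, and SP5 and NANOG, a WNT target and a pluripotency factor that were lower. The 250 bases before each RefSeq transcription start (GRCh38.p14) are printed 5′ to 3′ on the gene's strand, with the motif searched in capitals.
CGA, chr6:87095107-87095356, minus strand: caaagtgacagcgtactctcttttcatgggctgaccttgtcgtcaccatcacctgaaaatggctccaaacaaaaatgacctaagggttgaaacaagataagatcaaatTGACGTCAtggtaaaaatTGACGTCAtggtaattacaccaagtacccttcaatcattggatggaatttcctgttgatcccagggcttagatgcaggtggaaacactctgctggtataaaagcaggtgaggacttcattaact
SP5, chr2:170715087-170715336, plus strand: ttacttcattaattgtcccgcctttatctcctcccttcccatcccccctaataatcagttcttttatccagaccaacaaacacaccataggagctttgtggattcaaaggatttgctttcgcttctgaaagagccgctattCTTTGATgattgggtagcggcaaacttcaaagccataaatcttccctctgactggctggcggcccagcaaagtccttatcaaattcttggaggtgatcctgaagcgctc
NANOG, chr12:7789152-7789401, plus strand: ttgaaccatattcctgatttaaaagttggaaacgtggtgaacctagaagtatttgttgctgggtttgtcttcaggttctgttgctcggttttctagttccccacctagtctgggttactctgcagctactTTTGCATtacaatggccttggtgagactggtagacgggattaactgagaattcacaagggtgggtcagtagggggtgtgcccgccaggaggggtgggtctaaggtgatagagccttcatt
The cyclic AMP response element TGACGTCA, which equals its own reverse complement, begins 142 and 124 bases before the CGA start and occurs in 1.65% of 35116 promoters of this length. CTTTGAT, the letters bound by TCF and LEF factors of the WNT pathway, begins 109 bases before the SP5 start and is found on either strand of 2.26% of promoters. TTTGCAT, part of the octamer bound by POU factors such as POU5F1, begins 120 bases before the NANOG start and is found on either strand of 3.94%. These matches describe letters only and no binding was measured.

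Trophoblast genes showed the largest differences among the named genes. Of 26 measured members among 34 amnion and trophoblast genes, 24 were higher at FPM_IC50, SDC1 was lower and TFAP2B was not called (-0.26, edgeR adjusted p = 0.0750), with a median log2 difference of 2.70. Over the 14 members with no opposite gene within 5 kb, 12 were higher and 1 lower, with a median of 2.59. CGA (ENSG00000135346, GRCh38 chromosome 6, 87085498 to 87095406, minus strand), which codes for a hormone subunit that gonadotropins share, had 55.4, 59.3 and 107 CPM at FPM_IC50, 0.780, 0.713 and 0.967 CPM at SRM_IC50 and 35.6, 40.4 and 57.6 CPM in UNT. The lowest FPM_IC50 library lay far above the highest SRM_IC50 library, and UNT partly shared the range of FPM_IC50. Its log2 difference was 6.53, SE 0.335, edgeR adjusted p = 5.90e-10. Against UNT it was 0.73 at FPM_IC50 (adjusted p = 0.0362) and -5.79 at SRM_IC50 (adjusted p = 1.48e-08). CGA was a member only through FPM_IC50 and UNT, where it was high. The adjusted p of its differences from SRM_IC50 is therefore no support for a difference. Fewer trophoblast cells and less RNA per cell cannot be told apart in bulk RNA.

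Genes of cell fusion were almost absent from the SRM_IC50 libraries. ERVW-1, which encodes the fusogenic envelope protein syncytin-1 (ENSG00000242950, GRCh38 chromosome 7, 92468380 to 92477986, minus strand), had 6.82, 8.72 and 12.7 CPM at FPM_IC50, 0.0678, 0 and 0.176 CPM at SRM_IC50 and 5.32, 3.88 and 4.94 CPM in UNT. It rested on 386 counts at FPM_IC50 and 4 at SRM_IC50, a ratio of CPM of 141 (exact 95% counting interval 54.5 to 519), which covers counting error only. ERVFRD-1, the gene of syncytin-2, had 283 and 4 counts and a ratio of 103 (exact 95% counting interval 39.8 to 381). The related envelope genes ERVV-1 and ERVV-2 are near-identical copies, so reads may be split between them. ERVV-1 had 165 counts against 1, a ratio of 241 (exact 95% counting interval 42.6 to 9559), and ERVV-2 had 160 against 2, a ratio of 117 (exact 95% counting interval 31.8 to 971). No SRM_IC50 library exceeded 2 counts in any of these 4 genes. The fitted log2 difference of ERVV-1, 7.49, was 9.44 without SRM_IC50 replicate 2, which holds its single count, and 6.71 without replicate 1. That of ERVW-1, 7.03, was 7.66 without SRM_IC50 replicate 3. GCM1, the transcription factor that switches on fusion, had 4.77, 7.04 and 10.4 CPM at FPM_IC50, 0.0339, 0.153 and 0.176 CPM at SRM_IC50 and 5.08, 3.94 and 6.40 CPM in UNT (log2 6.13, SE 0.433, edgeR adjusted p = 1.43e-08). Without SRM_IC50 replicate 1 its log2 difference was 5.47. Like CGA, GCM1 and these envelope genes reached 1 CPM in 3 libraries only through FPM_IC50. Their direction and adjusted p are no support for a difference.

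Other placental products followed the same direction. LGALS16, a placental galectin, had 4.19, 4.81 and 6.88 CPM at FPM_IC50, 0.0678, 0.0509 and 0.264 CPM at SRM_IC50 and 3.63, 3.58 and 4.45 CPM in UNT (log2 5.64, SE 0.379, edgeR adjusted p = 8.46e-09). CYP19A1 encodes aromatase, which forms oestrogens. It had a mean of 36.1 ± 9.95 CPM at FPM_IC50 and 0.709 ± 0.00514 CPM at SRM_IC50 (SD, n = 3), and HSD3B1, an enzyme of progesterone synthesis, 28.3 ± 7.07 and 2.24 ± 0.832 CPM. CYP19A1 and HSD3B1 were named after their values were seen, as were GATA2 and GATA3, and exons of CYP19A1 overlap an opposite gene's. GATA2 and GATA3, regulators of early trophoblast, differed by 3.06 and 2.12 on the log2 scale (edgeR adjusted p = 5.92e-10 and 2.18e-08). Further genes among the 12 largest were S100P, a calcium-binding protein (log2 4.86), HOPX, a homeodomain protein that does not bind DNA (4.66), CSF3R, the receptor of granulocyte colony-stimulating factor (4.57), FYB1, an adaptor of blood cells (5.05), and PRR9 (6.11). These fitted values of near-absent genes depend on the fit's prior count, and without SRM_IC50 replicate 3 that of LGALS16 was 6.29 and that of PRR9 6.78. All 12 and CYP19A1 reached 1 CPM in 3 libraries only through FPM_IC50, where they were high. Their direction and adjusted p are no support for a difference. CSF3R had 6.62, 6.99 and 8.06 CPM at FPM_IC50, 0.305, 0.254 and 0.352 CPM at SRM_IC50 and 4.83, 3.41 and 5.30 CPM in UNT. Of 15 blood cell genes 1, RUNX1, was a member (log2 1.90, edgeR adjusted p = 2.92e-06). Genes that were not members include the leukocyte gene PTPRC and the myeloid factor SPI1.

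**Figure D2:**
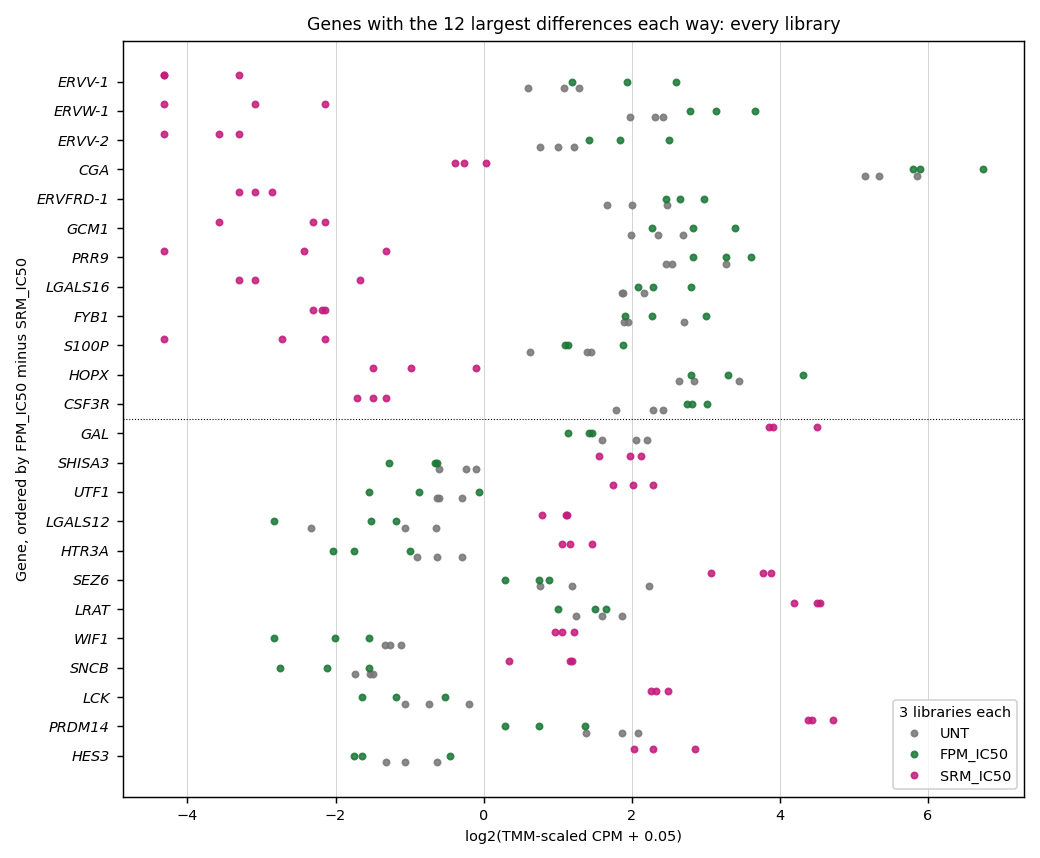
Log2(TMM-scaled CPM + 0.05) of the genes with the 12 largest differences in each direction, 1 point per library and 3 libraries per group. These genes were chosen among those without overlap of FPM_IC50 (green) and SRM_IC50 (magenta), and the UNT points (grey) lie on the FPM_IC50 side, such as CGA at 35.6 to 57.6 CPM. In the higher genes the member rule fixed UNT above SRM_IC50. Their SRM_IC50 mean was below 1 CPM, so they were kept only if their UNT mean reached 1 CPM.

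Epithelial genes were higher at FPM_IC50 almost throughout the list. Of 25 simple epithelium genes, all members, 24 were higher, and the tight junction gene CLDN6 was not called (0.10, edgeR adjusted p = 0.554). Their median log2 difference was 1.11. Exons of 13 overlap an opposite gene's, and all 4 with no opposite gene within 5 kb were higher, with a median of 0.82. KRT7, a keratin of simple and ductal epithelia, had 219, 249 and 307 CPM at FPM_IC50, 33.2, 29.8 and 37.5 CPM at SRM_IC50 and 187, 195 and 266 CPM in UNT. Each FPM_IC50 library exceeded each SRM_IC50 library several times over. The log2 difference of KRT7 was 2.95, SE 0.168, edgeR adjusted p = 1.46e-09. KRT23, another keratin, differed by 3.07. OVOL1 and GRHL1 encode transcription factors that keep cells epithelial and differed by 2.78 and 1.86. Exons of KRT7, KRT23 and OVOL1 overlap opposite genes, so their values are uncertain, while GRHL1 has an opposite gene within 5 kb but no overlap. GRHL1 had 32.1, 38.2 and 41.5 CPM at FPM_IC50, 10.0, 12.1 and 8.26 CPM at SRM_IC50 and 32.1, 33.0 and 32.6 CPM in UNT (log2 1.86, SE 0.121, edgeR adjusted p = 5.59e-09). KRT19, which has no opposite gene within 5 kb and was named after its values were seen, had 826, 944 and 1181 CPM at FPM_IC50 and 317, 304 and 473 CPM at SRM_IC50 (edgeR adjusted p = 1.53e-05). The mesenchymal transition list had 3 of 17 members higher and 6 lower, beside 17% higher and 19.3% lower over all members. FN1, the fibronectin gene, was higher (log2 1.27, edgeR adjusted p = 0.000425), and ZEB2 (-0.86), a repressor of epithelial genes, THY1 (-0.84) and PRRX1 (-0.76) were lower. That list's median was -0.18, but 0.05 for 7 genes in the fit on genes with no opposite gene within 5 kb.

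Genes of the undifferentiated state were mostly lower at FPM_IC50. Of 19 measured members among 27 pluripotency genes, 14 were lower and 2 higher, and L1TD1, LIN28B and ZFP42 were not called (log2 -0.31, -0.09 and 0.02). The median was -1.30, and over the 11 members with no opposite gene within 5 kb 8 were lower and 2 higher. PRDM14, a repressor of differentiation genes (ENSG00000147596, GRCh38 chromosome 8, 70051651 to 70071693, minus strand), had 1.17, 2.53 and 1.63 CPM at FPM_IC50, 26.2, 21.6 and 20.7 CPM at SRM_IC50 and 3.58, 4.17 and 2.56 CPM in UNT. Its SRM_IC50 libraries lay above all others and its FPM_IC50 libraries below the UNT libraries. The log2 difference was -3.60, SE 0.243, edgeR adjusted p = 8.65e-09. NANOG, whose promoter is printed above, had 4.09, 5.75 and 4.35 CPM at FPM_IC50, 18.95, 16.2 and 20.4 CPM at SRM_IC50 and 4.83, 6.93 and 6.10 CPM in UNT (log2 -1.94, SE 0.171, edgeR adjusted p = 1.65e-07). POU5F1 differed by -1.80 (edgeR adjusted p = 5.02e-07), although its exons overlap an opposite gene's, and it has near-identical pseudogenes that can share its reads. SOX2, a factor of both pluripotent and neural cells, had 108, 80.6 and 84.4 CPM at FPM_IC50, 236, 244 and 281 CPM at SRM_IC50 and 127, 131 and 122 CPM in UNT (log2 -1.48, SE 0.1104, edgeR adjusted p = 2.46e-08). Here FPM_IC50 was also below UNT (log2 -0.48, adjusted p = 0.00494) and SRM_IC50 above it (1.00, adjusted p = 6.25e-06). UTF1, a chromatin-bound stem cell factor, had 0.292, 0.496 and 0.905 CPM at FPM_IC50, 4.00, 3.31 and 4.84 CPM at SRM_IC50 and 0.597, 0.764 and 0.610 CPM in UNT (log2 -2.83, SE 0.420, edgeR adjusted p = 4.87e-05). UTF1 was a member only through SRM_IC50, where it was high, so its adjusted p is no support for a difference. TDGF1, a co-receptor for Nodal, and ESRG, a long non-coding RNA of stem cells, differed by -2.80 and -2.08. KLF4 and TFCP2L1, factors of the naive state, were the 2 higher members, at 1.74 and 1.63; KLF4 also acts in epithelia.

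Primitive streak genes were few. Of 9 members among 17, 4 were lower at FPM_IC50 and 5 not called. The lower ones were SP5 (-1.95), FOXH1 (-1.39), a partner of Nodal-activated SMADs, NODAL (-1.30) and WNT3A (-1.15). EOMES, a streak transcription factor named after its values were seen, was not called (log2 -1.01, edgeR adjusted p = 0.0710). DNMT3B, the DNA methyltransferase of early embryonic cells, had 121, 132 and 111 CPM at FPM_IC50, 340.1, 318 and 251 CPM at SRM_IC50 and 138, 120.3 and 99.5 CPM in UNT (log2 -1.32, SE 0.135, edgeR adjusted p = 8.52e-07). Of the 14 DNA methylation genes 5 were lower and 3 higher, with TET2, which oxidises methylcytosine, at 0.81, IDH1 at -0.75 and UHRF1, which guides methylation to new DNA, at -0.46.

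**Figure D3:**
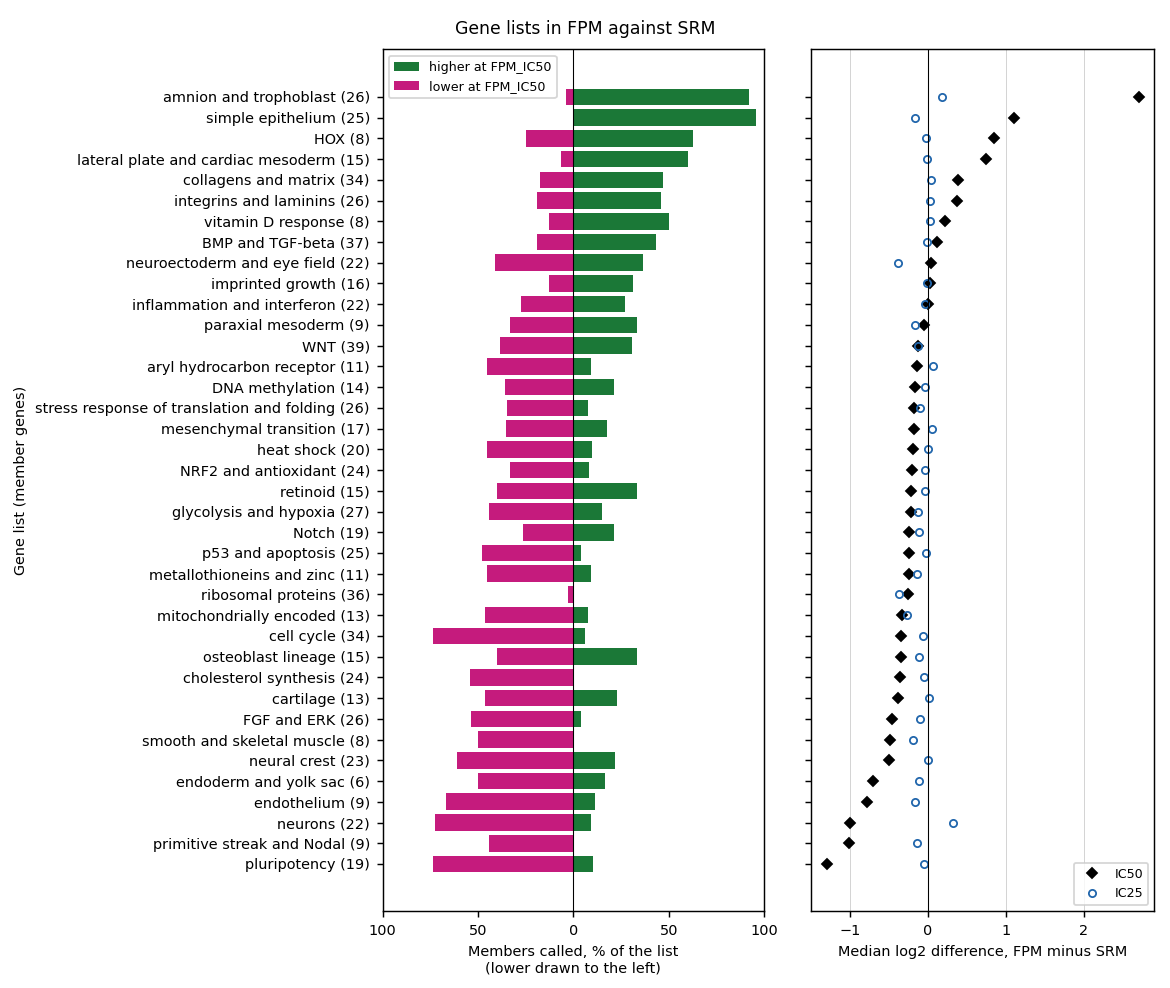
Left, the share of each list's member genes called higher (right of 0) or lower (left of 0) at FPM_IC50 than at SRM_IC50, for lists with at least 5 members, whose number stands in brackets. Right, the median log2 difference between the particles at IC50 (diamonds) and IC25 (circles): at IC50 the medians run from -1.30 for pluripotency to 2.70 for amnion and trophoblast.

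Neural plate and eye genes went both ways. Of 22 neuroectoderm and eye field genes, all members, 8 were higher at FPM_IC50 and 9 lower, with a median of 0.03. RAX, the factor that starts eye formation (ENSG00000134438, GRCh38 chromosome 18, 59267035 to 59274086, minus strand), had 55.4, 30.2 and 34.7 CPM at FPM_IC50, 8.85, 5.85 and 5.63 CPM at SRM_IC50 and 33.0, 41.6 and 47.7 CPM in UNT. All 3 FPM_IC50 libraries exceeded those of SRM_IC50 and overlapped those of UNT. Its log2 difference was 2.51, SE 0.376, edgeR adjusted p = 5.30e-05. SIX6 (2.31), an eye field factor, LHX9 (2.31), a LIM homeodomain factor, and DCT (3.32), a pigment enzyme, were higher too. DCT rested on 18 counts over the SRM_IC50 libraries and reached 1 CPM in 3 libraries only through FPM_IC50, where it was high. In the other direction stood SOX2 and, named after its values were seen, ZIC2, a zinc finger factor of the early neural plate, at -1.30 (edgeR adjusted p = 3.76e-08). ZIC2 had 77.4, 65.0 and 63.5 CPM at FPM_IC50 and 168, 172 and 165 CPM at SRM_IC50, without overlap.

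Neuron genes were mostly lower at FPM_IC50. Of 22 members 16 were lower, and ISL1 and STMN2 were higher (log2 1.20 and 0.62); ISL1 is also a gene of amnion and heart progenitors. The median was -1.001, and of the 9 members with no opposite gene within 5 kb 7 were lower and 1 higher. GAP43, a growth cone protein, had 21.6, 17.8 and 17.0 CPM at FPM_IC50, 47.3, 51.4 and 76.5 CPM at SRM_IC50 and 28.3, 31.4 and 32.4 CPM in UNT. The particles did not overlap, and UNT lay between them. The log2 difference of GAP43 was -1.63, SE 0.191, edgeR adjusted p = 4.14e-06. Also lower were the neurofilament gene NEFM (-1.46), CHGA (-1.69), a protein of secretory granules, and ELAVL4 (-1.33), a neuronal RNA-binding protein. Among the 12 largest negative differences were SNCB (-3.41), the beta-synuclein gene, SEZ6 (-2.98), HTR3A (-2.96), a serotonin-gated channel, and GAL (-2.76), the galanin neuropeptide. SNCB and HTR3A were members only through SRM_IC50, where they were high, and CHGA reached 1 CPM in 3 libraries only through SRM_IC50. GAL had 2.14, 2.63 and 2.72 CPM at FPM_IC50, 14.9, 14.5 and 22.6 CPM at SRM_IC50 and 2.99, 4.11 and 4.57 CPM in UNT. LCK, a kinase best known from T cells, had 0.390, 0.644 and 0.272 CPM at FPM_IC50, 4.98, 5.55 and 4.75 CPM at SRM_IC50 and 0.547, 0.822 and 0.427 CPM in UNT (log2 -3.42, SE 0.313, edgeR adjusted p = 2.48e-07). LCK too was a member only through SRM_IC50, so its adjusted p is no support for a difference. Neural crest genes had 14 of 23 members lower and 5 higher, with a median of -0.50. FOXD3, an early crest factor, differed by -1.52, SOX8 by -1.26, ZIC1 by -1.03 and PAX3 by -0.92. Of the 6 crest members with no opposite gene within 5 kb, 2 were lower and 1 higher.

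Of 15 lateral plate and cardiac mesoderm members among 21 genes listed, 9 were higher at FPM_IC50, BMP5 was lower (-0.78) and 5 were not called, with a median of 0.74; of the 8 with no opposite gene within 5 kb, 4 were higher and 1 lower. HAND1, a factor of lateral plate mesoderm and of extraembryonic tissue, had 159, 227 and 296 CPM at FPM_IC50, 33.9, 27.2 and 42.2 CPM at SRM_IC50 and 187, 203 and 243 CPM in UNT. Every FPM_IC50 library exceeded every SRM_IC50 library. The log2 difference of HAND1 was 2.73, SE 0.207, edgeR adjusted p = 2.95e-08. TBX3, a T-box factor also found in amnion, had 50.2, 67.0 and 66.9 CPM at FPM_IC50, 12.3, 12.98 and 12.04 CPM at SRM_IC50 and 51.1, 53.05 and 55.1 CPM in UNT (log2 2.30, SE 0.126, edgeR adjusted p = 1.05e-09). GATA6, a factor of heart and endoderm, and MYH6, the atrial myosin, differed by 2.05 and 1.44. Paraxial mesoderm genes went both ways, with 3 of 9 members higher and 3 lower. MEOX1, a somite factor, was at 1.03, DLL3, a Notch ligand of the presomitic mesoderm, at -1.35, and PAX1 and TCF15, factors of the somite, at 0.95 and -1.01. TCF15 lost its call without FPM_IC50 replicate 1 (edgeR adjusted p = 0.0521), and PAX1 without that library or SRM_IC50 replicate 3 (up to 0.0786) and in a fit of the 6 compared libraries alone (0.0558).

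Vessel genes were lower in 6 of 9 endothelial members. KDR, a VEGF receptor that also marks early mesoderm, had 12.8, 9.71 and 7.33 CPM at FPM_IC50, 55.1, 48.9 and 36.3 CPM at SRM_IC50 and 15.4, 12.1 and 7.99 CPM in UNT (log2 -2.25, SE 0.221, edgeR adjusted p = 5.55e-07). TIE1 and TEK, receptors of the angiopoietin system, differed by -1.23 and -1.02. The exception was CDH5, the endothelial cadherin, which was higher (1.20). Among 6 endoderm and yolk sac members AFP, the fetal serum protein, FOXA3 and CXCR4 were lower (-1.73, -0.80 and -0.60), while GATA6 was higher. Muscle genes had 4 of 8 members lower and 4 not called. The lower ones were DES, TAGLN, ACTA1 and CNN1, at -2.28, -0.81, -0.73 and -0.69. DES had 11 counts over the FPM_IC50 libraries, with 0 in replicate 3. It reached 1 CPM in 3 libraries only through SRM_IC50, where it was high.

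HOX and related genes had 5 of 8 members higher and 2 lower, with 28 genes listed. MEIS1, a cofactor of HOX proteins, was 49.7 ± 2.16 CPM at FPM_IC50 and 9.28 ± 1.79 CPM at SRM_IC50 (SD, n = 3), although its exons overlap an opposite gene's. CDX2, a factor of trophoblast and of the posterior body axis, had 3.02, 3.17 and 3.26 CPM at FPM_IC50, 0.712, 0.509 and 0.791 CPM at SRM_IC50 and 2.14, 3.00 and 3.35 CPM in UNT (log2 2.24, SE 0.284, edgeR adjusted p = 9.42e-06). CDX1, its relative, differed by 1.73 and HOXB2, a hindbrain HOX gene, by 1.14. CDX2 reached 1 CPM in 3 libraries only through FPM_IC50, so its adjusted p is no support for a difference. The lower members were HOXA2 (-1.06) and HOXB1 (-0.47).

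The bone lineage that the protocol aims at differed in both directions. Of 15 members among 22 osteoblast genes, 5 were higher at FPM_IC50 and 6 lower, with a median of -0.35; of the 10 with no opposite gene within 5 kb, 2 were higher and 6 lower. The late bone matrix genes BGLAP, IBSP and DMP1 were not members. ALPL, the alkaline phosphatase of mineralising cells, which stem cells also express (ENSG00000162551, GRCh38 chromosome 1, 21509372 to 21578412, plus strand), had 82.8, 74.5 and 71.1 CPM at FPM_IC50, 167, 164 and 155 CPM at SRM_IC50 and 97.0, 85.003 and 83.0 CPM in UNT. Its SRM_IC50 libraries lay above all others. The log2 difference was -1.09, SE 0.0886, edgeR adjusted p = 6.49e-08. TNFRSF11B, the decoy receptor osteoprotegerin, was lower at FPM_IC50 (-1.60), as was SPP1, the matrix protein osteopontin (-0.64, edgeR adjusted p = 0.00676). COL1A1, the main collagen of bone, had 203, 299.6 and 239.5 CPM at FPM_IC50, 420.0, 355 and 282 CPM at SRM_IC50 and 252, 233 and 208 CPM in UNT and differed by -0.51 (edgeR adjusted p = 0.0199). Its call was lost without FPM_IC50 replicate 1, FPM_IC50 replicate 3 or SRM_IC50 replicate 1, with an adjusted p of up to 0.101, and with the 6 compared libraries alone (0.052) or limma (0.0805 and 0.0823 at FPKM pseudocounts 1 and 0.1). RUNX2, the factor that commits cells to bone, was higher by 0.67 (edgeR adjusted p = 0.0203), and its partner SP7 differed by -0.95 (adjusted p = 0.0297). Neither call held with each library left out. RUNX2 lost it without FPM_IC50 replicate 2 or 3 or SRM_IC50 replicate 1 or 2, with an adjusted p of up to 0.1, and SP7 without FPM_IC50 replicate 2 or SRM_IC50 replicate 1 or 2, with one of up to 0.212. With the 6 compared libraries alone the adjusted p was 0.0595 for RUNX2 and 0.0635 for SP7, and limma gave RUNX2 0.0752 and 0.0543. The homeobox genes DLX3 and DLX6, which pattern skeleton and placenta, were higher, at 1.38 and 1.21. DLX3 had 28.0, 27.9 and 32.5 CPM at FPM_IC50, 10.1, 11.96 and 12.1 CPM at SRM_IC50 and 24.8, 24.3 and 26.3 CPM in UNT.

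Vitamin D response genes, of interest since the medium held vitamin D3, had 4 of 8 members higher and 1 lower. TRPV6, a calcium channel that vitamin D induces and that placenta expresses, had 11.5, 11.2 and 13.6 CPM at FPM_IC50, 2.03, 2.04 and 1.93 CPM at SRM_IC50 and 9.16, 6.93 and 7.87 CPM in UNT (log2 2.58, SE 0.178, edgeR adjusted p = 1.16e-08), though its exons overlap an opposite gene's. VDR, the receptor itself, differed by 1.69 and had the same kind of overlap. It rested on 30 counts over the SRM_IC50 libraries and reached 1 CPM in 3 libraries only through FPM_IC50. CYP24A1, which degrades vitamin D, was at 0.68 (edgeR adjusted p = 0.0149), a call lost without replicate 2 of either group (adjusted p of up to 0.144), without the filter on low counts (0.0558) and with the 6 compared libraries alone (0.0721). CALB1, a calcium buffer, was lower (-1.78).

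Matrix genes were more often higher than lower at FPM_IC50. Of 34 members among 36 collagens and matrix genes 16 were higher and 6 lower, with a median of 0.38; of the 11 with no opposite gene within 5 kb, 6 were higher and 2 lower. LUM, a small proteoglycan that binds collagen fibrils, had 107, 138 and 181 CPM at FPM_IC50, 21.3, 20.4 and 25.7 CPM at SRM_IC50 and 119, 153 and 165 CPM in UNT. The groups did not overlap, and FPM_IC50 and UNT shared a range. The log2 difference of LUM was 2.67, SE 0.193, edgeR adjusted p = 1.75e-08. DCN, a related proteoglycan, differed by 2.13 and COL6A3, a chain of collagen VI, by 1.94. THBS2, a thrombospondin, was lower (-1.49). Integrins and laminins had 12 of 26 members higher and 5 lower. The epithelial integrin genes ITGB6 and ITGB4, whose products bind fibronectin and laminin, differed by 2.31 and 1.79, ITGB5 by 0.95 and the laminin chain LAMB3 by 1.27. Cartilage genes had 3 of 13 members higher and 6 lower. HAPLN1, which links matrix aggregates, was higher (1.24), and CNMD, a cartilage glycoprotein, was lower (-2.42), as were COL11A1 (-0.66) and COL9A1 (-0.65).

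WNT pathway genes differed in both directions. Of 39 members 12 were higher at FPM_IC50 and 15 lower, with a median of -0.12. Among ligands, WNT11 and WNT6 were higher, at 2.58 and 1.65, while WNT3A was lower. WNT6, which also marks amnion, had 35.6, 42.0 and 49.3 CPM at FPM_IC50, 11.9, 11.5 and 17.7 CPM at SRM_IC50 and 33.1, 39.9 and 47.2 CPM in UNT. Among inhibitors, WIF1, which captures secreted WNT, was lower (-3.37), with 8 counts over the FPM_IC50 libraries. It was a member only through SRM_IC50, where it was high. SP5, a direct target of β-catenin, had 16.7, 17.5 and 22.3 CPM at FPM_IC50, 65.7, 69.1 and 83.6 CPM at SRM_IC50 and 23.5, 28.8 and 27.3 CPM in UNT (log2 -1.95, SE 0.156, edgeR adjusted p = 5.41e-08). Its SRM_IC50 libraries exceeded all others. AXIN2, a feedback target named after its values were seen, had 66.4, 63.5 and 58.7 CPM at FPM_IC50 and 90.7, 91.2 and 88.6 CPM at SRM_IC50 (log2 -0.52, SE 0.0925, edgeR adjusted p = 0.000272). BMP and TGF-beta genes had 16 of 37 members higher and 7 lower. TGFBI, a matrix protein induced by TGF-beta, had 289.6, 384 and 433 CPM at FPM_IC50, 117, 106 and 122 CPM at SRM_IC50 and 301, 346 and 364 CPM in UNT (log2 1.68, SE 0.127, edgeR adjusted p = 2.90e-08). GREM1, a BMP antagonist, was lower (-1.34), and the ligand GDF6 was higher (1.20). The ligand gene BMP4, named after its values were seen, was higher (0.74, edgeR adjusted p = 9.60e-06).

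FGF and ERK genes were lower at FPM_IC50 in 14 of 26 members and higher in 1, FGFR2 (0.33), with a median of -0.46. Of the 10 with no opposite gene within 5 kb, 5 were lower and 1 higher. The receptor gene FGFR4 had 11.2, 11.5 and 9.41 CPM at FPM_IC50, 30.7, 28.6 and 31.5 CPM at SRM_IC50 and 11.5, 11.9 and 10.9 CPM in UNT (log2 -1.49, SE 0.129, edgeR adjusted p = 1.30e-07). ETV4 and FOSL1, transcription factors induced by ERK, differed by -1.41 and -1.05, and the ligand FGF19 by -1.20, a call lost without FPM_IC50 replicate 2 (edgeR adjusted p = 0.0544). Notch genes had 4 of 19 members higher and 5 lower, near the shares of 17% and 19.3% over all members. HES3, a repressor of the HES family, showed the largest negative difference of the named genes, with 0.682, 0.248 and 0.272 CPM at FPM_IC50, 4.81, 7.18 and 4.04 CPM at SRM_IC50 and 0.597, 0.352 and 0.427 CPM in UNT (log2 -3.85, SE 0.400, edgeR adjusted p = 1.04e-06). It rested on 15 counts at FPM_IC50 and 329 at SRM_IC50. HES3 was a member only through SRM_IC50, where it was high, so its adjusted p is no support for a difference. MFNG, which adds sugars to Notch, was lower (-1.84) and HEY1, a Notch target, higher (1.1004). MFNG reached 1 CPM in 3 libraries only through SRM_IC50, where it was high, so its direction is no support for a difference.

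Retinoid genes went both ways. LRAT, which stores retinol as esters, had 1.95, 2.78 and 3.08 CPM at FPM_IC50, 23.3, 18.2 and 22.7 CPM at SRM_IC50 and 2.99, 3.58 and 2.32 CPM in UNT (log2 -3.02, SE 0.196, edgeR adjusted p = 5.59e-09). The SRM_IC50 libraries lay above all others, and FPM_IC50 shared the range of UNT. CYP26A1, which degrades retinoic acid and is induced by it, had 11.2, 10.4 and 11.6 CPM at FPM_IC50, 35.8, 36.6 and 44.3 CPM at SRM_IC50 and 13.7, 13.5 and 11.95 CPM in UNT (log2 -1.81, SE 0.120, edgeR adjusted p = 6.92e-09). The receptor gene RARB and the synthesis enzyme gene ALDH1A1 were higher at FPM_IC50, at 1.76 and 1.53. Of 15 members 5 were higher and 6 lower.

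**Figure D4:**
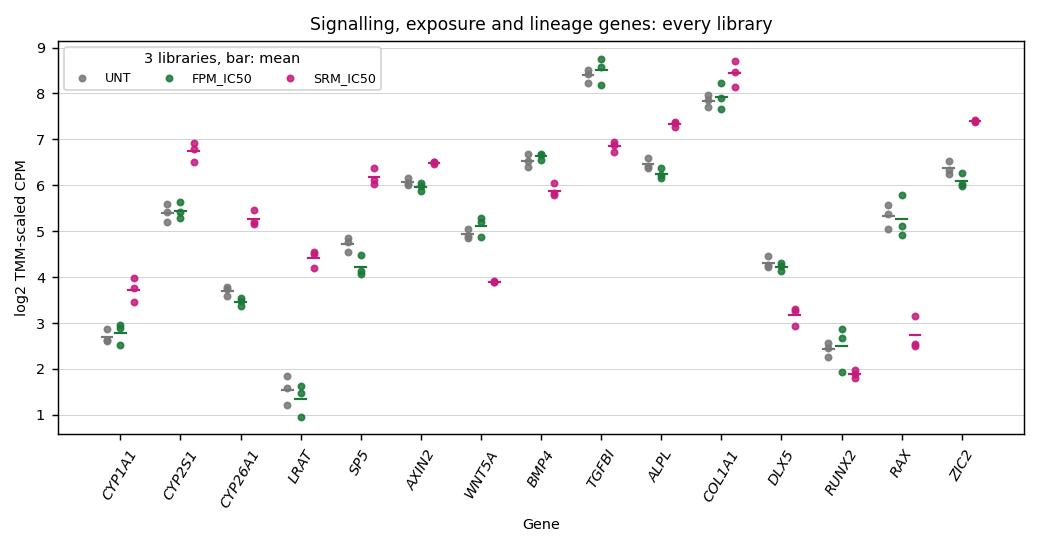
Log2 TMM-scaled CPM of 15 genes of exposure, retinoid, WNT, BMP and TGF-beta signalling, bone and the neural plate, 1 point per library with the mean of the 3 log2 values as a bar. FPM_IC50 (green) and UNT (grey) sit together in most of these genes while SRM_IC50 (magenta) sits above them for CYP1A1 or LRAT and below them for TGFBI or RAX. The 15 genes were picked by hand with earlier results of these data known, so they stand for no wider set.

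Genes of the aryl hydrocarbon receptor pathway were lower at FPM_IC50 in 5 of 11 members, and the receptor gene AHR was higher (0.60). CYP1A1, the classical target that oxidises hydrocarbons (ENSG00000140465, GRCh38 chromosome 15, 74719542 to 74725610, minus strand), had 5.75, 7.38 and 7.79 CPM at FPM_IC50, 15.9, 13.5 and 10.9 CPM at SRM_IC50 and 6.07, 7.28 and 6.22 CPM in UNT. The SRM_IC50 libraries lay above both other groups. Its log2 difference was -0.95, SE 0.186, edgeR adjusted p = 0.000629. Against UNT it was 0.11 at FPM_IC50 (adjusted p = 0.796) and 1.06 at SRM_IC50 (adjusted p = 0.000578). CYP1B1, whose exons overlap an opposite gene's, differed by -0.70 and CYP2S1 by -1.29. Of 24 NRF2 and antioxidant members 2 were higher and 8 lower, with a median of -0.20, or 0.03 in the fit on genes with no opposite gene within 5 kb. HMOX1, which breaks down haem under oxidative stress, had 28.4, 30.9 and 40.5 CPM at FPM_IC50 and 25.8, 24.0 and 26.8 CPM at SRM_IC50 and was higher by 0.38 (edgeR adjusted p = 0.0477). NQO1, a quinone reductase, differed by -0.47 (adjusted p = 0.0208). HMOX1 lost its call in 5 of the 6 fits that left out a library, all but that without FPM_IC50 replicate 1, with an adjusted p of up to 0.252. NQO1 lost it without FPM_IC50 replicate 1 or SRM_IC50 replicate 3 (up to 0.106). With the 6 compared libraries alone the adjusted p was 0.0692 for HMOX1 and 0.0518 for NQO1. The glutathione reductase gene GSR (-0.61) and PRDX1 (-0.54) were lower. Metallothioneins, which bind zinc and cadmium and whose near-identical copies can share reads, had 5 of 11 members lower and SLC30A10 higher (0.58). MT1X and MT1G differed by -1.54 and -1.41, of which MT1G was not called by limma at a pseudocount of 0.1 (0.0507). The call of SLC30A10 was lost without FPM_IC50 replicate 1 or 2 or SRM_IC50 replicate 2 or 3 (up to 0.122), without the filter on low counts (0.0528) and with the 6 compared libraries alone (0.0769).

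Heat shock, translation and folding stress and p53 genes were mostly lower at FPM_IC50 where they were called. Of members with no opposite gene within 5 kb, heat shock had 1 higher and 1 lower of 5. Translation and folding stress had 1 and 1 of 7, p53 and apoptosis 0 and 5 of 7, and inflammation 2 and 1 of 6. Heat shock genes had 2 of 20 members higher and 9 lower, with a median of -0.19, or 0.16 in the fit on genes with no opposite gene within 5 kb. HSPB8, a small heat shock protein, was higher (2.19), as was its partner BAG3 (0.72), while the mitochondrial chaperonin genes HSPE1 and HSPD1 were lower (-1.06 and -0.66). Translation and folding stress genes had 9 of 26 lower and 2 higher, beside 19.3% and 17% of all members. The lower ones were led by the serine and asparagine synthesis genes PSAT1 (-0.92) and ASNS (-0.72), with MTHFD2 (-0.82) and CHAC1 (-0.85). Of 25 p53 and apoptosis genes 12 were lower and TP53INP1 was higher (0.49). PMAIP1, a promoter of cell death, had 15.1, 19.9 and 20.4 CPM at FPM_IC50, 37.8, 36.8 and 46.0 CPM at SRM_IC50 and 21.0, 27.6 and 22.8 CPM in UNT (log2 -1.11, SE 0.131, edgeR adjusted p = 4.47e-06). Inflammation genes had 6 of 22 members each way, beside 17% higher and 19.3% lower over all members. IL1R1, a receptor of interleukin 1, and TNFAIP3, a brake on NF-kB, were higher (2.90 and 2.09), while IL1A (-1.85) and the adhesion gene ICAM1 (-1.24) were lower. Exons of IL1R1, TNFAIP3 and ICAM1 overlap opposite genes'. IL1A reached 1 CPM in 3 libraries only through SRM_IC50, where it was high.

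Cell cycle genes were mostly lower at FPM_IC50, by small amounts. Of 34 members 25 were lower and 2 higher, with a median of -0.35; of the 13 with no opposite gene within 5 kb, 9 were lower and 1 higher. PCNA, the clamp of DNA replication, differed by -0.61, TYMS, which makes thymidylate, by -0.61 and the cyclin gene CCND1 by -0.76. CCND3 (0.45) and CDKN1C were the higher members. CDKN1C, an imprinted inhibitor of the cycle, had 91.0, 99.6 and 135 CPM at FPM_IC50, 28.3, 27.8 and 44.0 CPM at SRM_IC50 and 80.2, 91.5 and 126 CPM in UNT (log2 1.71, SE 0.193, edgeR adjusted p = 2.68e-06). Other imprinted genes included IGF2 (2.46), a fetal growth factor, and the RNA gene H19 (2.57). Exons of both overlap opposite genes'. H19 was 1589 ± 222 CPM at FPM_IC50 and 268 ± 13.9 CPM at SRM_IC50 (SD, n = 3).

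Cholesterol synthesis genes had 13 of 24 members lower and 11 not called, with a median of -0.36; of the 4 with no opposite gene within 5 kb 2 were lower. INSIG1, a sterol sensor, had 38.5, 35.3 and 38.5 CPM at FPM_IC50, 60.8, 64.3 and 73.9 CPM at SRM_IC50 and 47.5, 52.2 and 49.4 CPM in UNT (log2 -0.82, SE 0.0892, edgeR adjusted p = 1.67e-06). Its FPM_IC50 and SRM_IC50 libraries did not overlap. Also lower were the pathway enzymes HMGCS1 and IDI1, at -0.77 and -0.52. Of 27 glycolysis and hypoxia genes 12 were lower and 4 higher. NDRG1 was higher (1.83), and ALDOC (-1.33), an aldolase, and ADM (-1.14), a vessel-widening peptide, were lower. Of 36 ribosomal protein genes 1 was called, RPL11 (-0.39), which lost its call without FPM_IC50 replicate 2 or SRM_IC50 replicate 3 (adjusted p of up to 0.1), with the 6 compared libraries alone (0.0736) and in the fit on genes with no opposite gene within 5 kb (0.0518). The list's median was -0.26, and at IC25 it was -0.38. Mitochondrially encoded genes had 6 of 13 lower, all on the strand opposite to MT-ND6, and MT-ND6 higher. MT-ATP6 differed by -0.69 and MT-CO2 by -0.66.

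The contrast at the lower level served as a comparison that shares no library with that at IC50. FPM_IC25 against SRM_IC25 gave 366 members higher (2.39%) and 108 lower (0.705%), and exons of 324 of those 366 overlap an opposite gene's. Over all genes tested 9.89% were higher and 0.605% lower. In the interaction test, which compares the difference at IC50 with that at IC25, 1363 members (8.9%) had a more positive difference at IC50 and 1221 (7.97%) a more negative one, together 16.9%. Over all genes tested the shares were 8.01% and 6.59%, together 14.6%. The amnion and trophoblast list had 24 of 26 members called in that test, simple epithelium 22 of 25, neurons 16 of 22, neuroectoderm and eye field 15 of 22 and pluripotency 13 of 19. CGA had 68.6, 49.0 and 64.5 CPM at FPM_IC25 and 47.6, 52.99 and 42.9 CPM at SRM_IC25, where the libraries of the particles overlapped. Its difference at IC25 was 0.34 on the log2 scale (adjusted p = 0.434), and the difference at IC50 exceeded it by 6.19 (edgeR adjusted p = 1.73e-07). CGA was kept through its values at FPM_IC50 and in UNT, so that adjusted p is no support for a difference. PRDM14 had 2.26, 2.46 and 1.76 CPM at FPM_IC25 and 3.03, 2.55 and 1.87 CPM at SRM_IC25, and its difference at IC50 less that at IC25 was -3.35 (edgeR adjusted p = 1.02e-05). RAX (3.49, adjusted p = 0.000239) and CYP1A1 (-1.33, adjusted p = 0.00284) passed too. Among the bone markers, ALPL passed (-0.70, adjusted p = 0.00120), whereas for RUNX2, SP7, SPP1 and COL1A1 the adjusted p was 0.338, 0.376, 0.1102 and 0.169, and for MT-ND6 0.308. The plot of both levels shows 4 of the lists, picked after their values were seen.

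**Figure D5:**
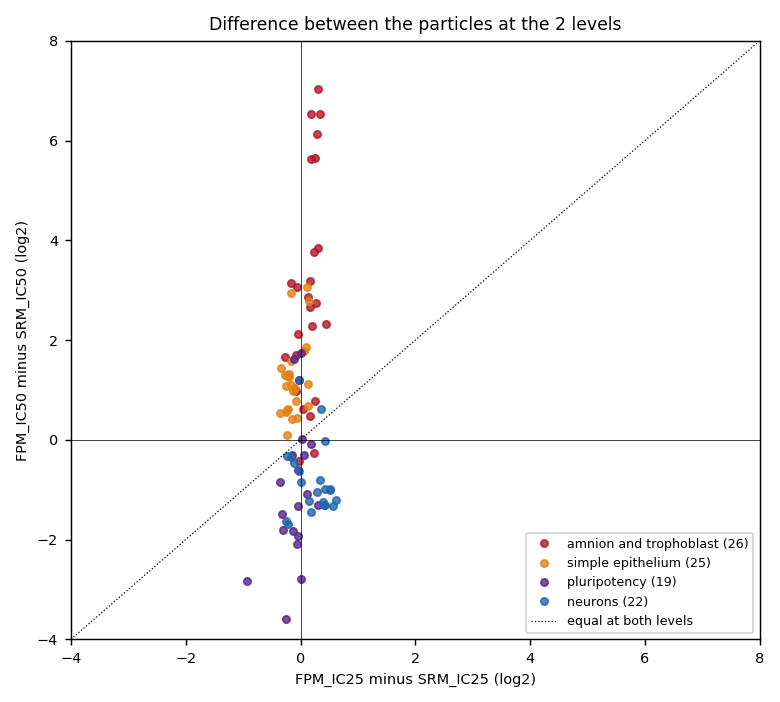
Log2 difference FPM minus SRM at IC25 (horizontal) and IC50 (vertical), 1 point per member gene of 4 lists, whose number of members stands in brackets. The points form a near-vertical band: differences at IC50 run from -3.60 (PRDM14) to 7.03 (ERVW-1), while the list medians at IC25 are 0.18, -0.16, -0.05 and 0.31 in the order of the key.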

How the data were processed

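Polyadenylated RNA of 15 libraries, 3 in each of 5 groups, was sequenced with a directional kit. The submitters' processing notes name FastQC 0.11.7, HISAT2 2.2.1, SAMtools 1.10, featureCounts, Subread 2.0.15, DESeq2 and the build GRCh38. The authors deposited raw counts per gene and FPKM values, which differ from FPKM recomputed from those counts by at most 5e-07. Libraries were grouped by the labels. Except where limma or another alternative fit is named, p-values come from edgeR 4.0.16 (R 4.3.3): TMM scaling, filterByExpr, a robust quasi-likelihood fit of 5 group means over all 15 libraries, and Benjamini-Hochberg adjustment over 19012 genes. The interaction is the difference at IC50 less that at IC25. Opposite-strand classes follow GENCODE 29. Members and lists were chosen with earlier results of these data known. Genes named are the 12 largest differences each way among called, non-overlapping, protein-coding members without exon overlap, up to 4 called members per list with the largest differences, and 12 panel genes; a few such genes are not reported here. Exceptions to a list's direction, and members of a count of 5 or fewer that fall outside this rule, were named after their values were seen. Alternatives were DESeq2 1.42.0, its size factors, no filter on low counts, the 6 compared libraries alone, limma 3.58.1 on log2(FPKM + 1) and log2(FPKM + 0.1), a fit on genes without an opposite gene within 5 kb, a replicate block, a minimum of 5 CPM, and leaving out each library. Intervals and floors (3 counts) cover counting error only. Replicates of the compared groups correlated at 0.982 to 0.994 and differed beyond counting noise (chi-square statistics from 5.78 to 43.5 per gene, the highest for SRM_IC50 replicates 1 and 3).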

Additional observations from a re-analysis of the deposited data

Results flagged for a closer look

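The difference between the particles was not the same at both levels for 2584 of the members, by the edgeR interaction test with an adjusted p under 0.05 (16.9% of members, 14.6% of all genes tested). Each value below is the log2 difference FPM minus SRM at IC50 less that at IC25. Among the genes with the largest differences it was positive for ERVV-1 (6.90), ERVW-1 (6.72), ERVV-2 (6.23), CGA (6.19), ERVFRD-1 (6.33) and GCM1 (5.83). It was also positive for PRR9 (5.76), LGALS16 (5.45), FYB1 (4.74), S100P (4.84), HOPX (4.31) and CSF3R (4.31). The negative values were those of HES3 (-3.37), PRDM14 (-3.35), LCK (-2.93), SNCB (-3.06), WIF1 (-3.19) and LRAT (-3.23). Further negative values were those of SEZ6 (-2.82), HTR3A (-2.80), LGALS12 (-3.27), SHISA3 (-2.76) and GAL (-2.43); UTF1 did not pass (adjusted p = 0.0767). These 24 genes were chosen for their difference at IC50, which enters this test, so how many of them passed is no support for a pattern. Of the 12 panel genes, CYP1A1 (-1.33), CYP1B1 (-0.83), ALPL (-0.70), POU5F1 (-1.49), NANOG (-1.89) and SOX2 (-1.16) passed.

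In these lists 50% or more of the members passed the interaction test: pluripotency 13 of 19, amnion and trophoblast 24 of 26, simple epithelium 22 of 25, lateral plate and cardiac mesoderm 9 of 15, paraxial mesoderm 5 of 9, neuroectoderm and eye field 15 of 22, neural crest 14 of 23, neurons 16 of 22, blood 1 of 1, WNT 20 of 39, BMP and TGF-beta 20 of 37 and HOX 5 of 8. In the others the counts were mesenchymal transition 5 of 17, osteoblast lineage 6 of 15, vitamin D response 1 of 8, cartilage 4 of 13, collagens and matrix 13 of 34, primitive streak and Nodal 4 of 9, endoderm and yolk sac 1 of 6 and endothelium 4 of 9. The remaining lists had aryl hydrocarbon receptor 4 of 11, NRF2 and antioxidant 3 of 24, metallothioneins and zinc 1 of 11, heat shock 5 of 20, stress response of translation and folding 5 of 26, p53 and apoptosis 7 of 25, inflammation and interferon 5 of 22 and cholesterol synthesis 8 of 24. Last came glycolysis and hypoxia 6 of 27, cell cycle 14 of 34, FGF and ERK 9 of 26, Notch 5 of 19, retinoid 7 of 15, imprinted growth 6 of 16, DNA methylation 4 of 14 and integrins and laminins 9 of 26. Over all members 16.9% passed. The lists were written with earlier results of these data known, so a count above that share is no support for a pattern. Groups of 3 libraries are too small for a check of single outlying libraries.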

How the results depend on the processing

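The counts of members called higher and lower were 2678 and 3063 with DESeq2, 2612 and 2940 with its size factors, 2348 and 3006 without a filter on low counts, 2075 and 2190 in a fit of the 6 libraries, and 2796 and 2186 of 14540 genes with limma on log2(FPKM + 1). They moved by more than 1.5 times only in the fit on the 3582 members with no opposite gene within 5 kb, a smaller set, with 673 higher, 673 lower and 771 with an interaction. The like comparison is with the same 3582 members in the main fit, which gave 567 higher, 854 lower and 737 with an interaction. Between these it was mainly the balance that changed. Leaving out 1 library gave 2154 to 2466 higher, 2311 to 2894 lower and 1871 to 2630 with an interaction. In the fit with a replicate block the counts were 3158, 3769 and 3734. Same-numbered libraries share only a number: their deviations correlated at 0.054, 0.094 and 0.290, and 3 of 6 libraries correlated best with their own number. None of 169 named genes changed direction. Calls were lost for 2 genes without the filter (CYP24A1 and SLC30A10), 11 with 6 libraries (CYP24A1, PAX1, SOD1, MT1F, SLC30A10, RPL11, HMOX1, NQO1, RUNX2, SP7 and COL1A1), 5 and 6 of 159 with limma at pseudocounts 1 and 0.1 (ABCC2, SOD1, MT-ND4, RUNX2 and COL1A1 at both, MT1G at 0.1), and 2 of 66 in the fit without opposite genes (MT1F and RPL11), and 16 were lost in at least 1 fit without a library. List medians kept their sign, except that in the fit without opposite genes those of mesenchymal transition (0.0456), NRF2 and antioxidant (0.0316) and heat shock (0.162) turned positive. Their size was less stable. Medians were weaker or had moved in 19 of 39 lists with limma at pseudocount 1 and in 7 of 39 at 0.1. In the fit without opposite genes this held for 16 of 37, beside the 3 that turned. The cause was not tested. Depth limits genes that rest on 10 or fewer counts in a group, such as ERVV-1 and GCM1 at SRM_IC50 and SNCB and WIF1 at FPM_IC50.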
